A study of Mus musculus with 2 samples.

Results

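Open chromatin far from gene starts was described in the small intestinal epithelium of 1 mouse, by the cell class in which each site was open. A far peak is a peak whose nearest edge lies more than 100 kb from the start interval of every gene listed in the deposited matrix on the same chromosome. Of 146191 peaks, 3463 met this rule, or 2.37%, and the choice among the deposited peaks used positions alone. A site outside the deposited peak list could not be a member. The mouse was TrnA-mutant, with a mutation in the alanine tRNA gene of mitochondrial DNA (mtDNA) and a mutation load of 73%, and was 55 weeks old. Every cell described here came from this animal and carried that background. No other animal was analysed, so the values compare cell classes within 1 mouse and none of them measures an effect of the mutation. Epithelial cells were released from villi and crypts, stained for CD45, CD31, TER-119 and CD326, sorted with gates that are not stated, and fixed. The 10x Multiome kit, with a step adapted from DOGMA-seq that keeps mtDNA, then gave 2 libraries from the same cells, one of RNA and one of open chromatin (ATAC).

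Peaks of open chromatin that lie away from gene starts are often enhancers, stretches of DNA that bind transcription factors and raise the transcription of a gene on the same chromosome. An enhancer can act over long distances and can skip nearer genes, and developmental transcription factor genes often sit beside long gene-poor stretches rich in such elements. In the intestinal epithelium, stem cells in the crypt divide and give rise to absorptive enterocytes and to secretory cells, among them goblet, Paneth, enteroendocrine and tuft cells, and open sites away from gene starts are known to differ more between cell types than promoters do.

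Sequence was at hand for a small number of far peaks, those that hold the start of a RefSeq gene that the deposited annotation does not list. RefSeq (GRCm38.p6, the assembly of mm10) placed 21 starts of 20 genes in 19 far peaks, and all 20 genes were long non-coding RNAs. Such a peak is far from every gene of the matrix but not from every annotated start. Below, 5 of these 300-base windows are printed 5′ to 3′ on the strand of the RNA, chosen after their values were seen to show peaks higher in enterocyte-like, goblet-like, Paneth-like and crypt progenitor-like cells and 1 peak open in all classes. Capitals mark matches to the motifs listed after them.

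Gm31011: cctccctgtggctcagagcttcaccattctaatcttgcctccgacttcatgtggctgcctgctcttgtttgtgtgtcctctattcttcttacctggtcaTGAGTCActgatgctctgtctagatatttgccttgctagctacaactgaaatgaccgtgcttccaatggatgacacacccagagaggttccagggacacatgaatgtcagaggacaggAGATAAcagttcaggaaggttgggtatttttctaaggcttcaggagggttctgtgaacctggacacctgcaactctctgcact
Gm52524: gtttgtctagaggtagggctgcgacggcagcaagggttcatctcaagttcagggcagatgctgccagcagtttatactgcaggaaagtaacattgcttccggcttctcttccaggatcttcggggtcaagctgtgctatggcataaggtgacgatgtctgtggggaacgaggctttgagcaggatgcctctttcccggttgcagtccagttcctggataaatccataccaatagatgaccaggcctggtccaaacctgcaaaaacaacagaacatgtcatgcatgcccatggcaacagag
Gm30713: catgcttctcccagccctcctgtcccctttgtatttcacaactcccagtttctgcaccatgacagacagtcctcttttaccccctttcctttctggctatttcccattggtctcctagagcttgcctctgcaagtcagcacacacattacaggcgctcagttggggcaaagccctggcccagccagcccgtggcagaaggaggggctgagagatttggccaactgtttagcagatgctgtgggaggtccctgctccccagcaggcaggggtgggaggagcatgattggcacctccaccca
Gm52792: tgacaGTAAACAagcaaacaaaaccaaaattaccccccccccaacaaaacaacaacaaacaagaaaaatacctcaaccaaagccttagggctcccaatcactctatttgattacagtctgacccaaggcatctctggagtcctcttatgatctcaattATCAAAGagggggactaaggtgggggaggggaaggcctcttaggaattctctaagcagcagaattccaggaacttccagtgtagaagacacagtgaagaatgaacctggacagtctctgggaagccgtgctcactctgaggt
LOC115486907: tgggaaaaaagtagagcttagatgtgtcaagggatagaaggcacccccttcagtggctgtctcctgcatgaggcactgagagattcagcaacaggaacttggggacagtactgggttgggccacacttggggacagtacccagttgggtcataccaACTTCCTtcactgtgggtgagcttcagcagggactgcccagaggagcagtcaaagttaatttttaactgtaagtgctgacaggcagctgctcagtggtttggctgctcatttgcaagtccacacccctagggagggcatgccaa

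The Gm31011 window is chr1:192515905-192516204 on the plus strand and lies in a peak 229 kb from the nearest listed start. Levels are given in CPM, here the fragments in a peak per 1000000 fragments in all peaks of the class. That peak had 29.8 CPM in enterocyte-like cells, against 3.13 in crypt progenitor-like and 8.33 in goblet-like cells. It was 5.29-fold higher in enterocyte-like cells than in the other classes pooled (95% interval 4.56 to 6.13), and its window held an AP-1 match and a GATA match. The Gm52524 window, chr2:115776857-115777156 on the minus strand, belongs to a goblet-like peak described with its class and held no match. The Gm30713 window is chr8:125385634-125385933 on the plus strand. Its peak had 9.43 CPM in Paneth-like and 7.62 in enteroendocrine-like cells, was 3.14-fold higher in Paneth-like cells than in the other classes (2.03 to 4.68), and the window held no match. The Gm52792 window, chr5:142134674-142134973 on the minus strand, reached only 115 bases into its peak, which had 13.7 CPM in crypt progenitor-like cells and was 2.65-fold higher there (2.23 to 3.16). The window held a FOX and a TCF/LEF match, both in the part outside the peak. The LOC115486907 window is chr8:127441236-127441535 on the minus strand and held an ETS match. Its peak had 5982 fragments and differed by a factor of 1.68 between its highest and lowest class, with 78.5 CPM in Paneth-like, 75.5 in goblet-like, 64.3 in enterocyte-like, 57.4 in enteroendocrine-like, 53.4 in crypt progenitor-like and 46.8 in tuft-like cells.

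The motifs were searched as fixed letters on both strands, and the matches printed do not overlap one another. Over 32851 RefSeq promoter windows of the same length, 7.81% held the AP-1 letters TGANTCA, 11.2% the GATA letters AGATAA, 3.73% the TCF/LEF letters ATCAAAG, 3.65% the FOX letters TGTTTAC and 9.35% the ETS letters AGGAAGT. The other motifs searched were HNF4 as AAAGTCC (4.21%), CDX as CAATAAA (4.60%), POU as TTTGCAT (4.63%), bHLH as CAGATGG (5.30%), RUNX as TGTGGTT (5.27%) and CTCF as AGNGGGC (25.8%). A match describes letters in a window and does not show that a factor binds there.

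The matrix held 71697164 UMIs (unique molecular identifiers, each standing for 1 RNA molecule) and 197564789 counts in peaks over 12363 barcodes, which both libraries share. Of these, 9872 barcodes with at least 500 UMIs, 300 genes and 1000 peak counts were kept, with medians of 5591 UMIs, 1090 genes and 12884.5 peak counts. Cells were clustered on RNA alone, without any gene that flanks a far peak and without mtDNA genes, and the clusters were then named from marker lists, in which a few markers do flank far peaks: 2494 cells were enterocyte-like, 1475 goblet-like, 288 Paneth-like, 171 enteroendocrine-like, 99 tuft-like, 1692 crypt progenitor-like (stem-like and cycling-like clusters together) and 27 lymphocyte-like. A further 3626 cells lay in clusters that no marker list named and entered no class. The classes hold between 961037 fragments in peaks for tuft-like and 22670152 for crypt progenitor-like cells, so levels in enterocyte-like, goblet-like and crypt progenitor-like cells are measured far more closely than in the rarer classes. With 1 animal there is no replicate and no test, and every interval is an exact 95% interval that covers counting error only.

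Far peaks were as long as other peaks but weaker. Their median length was 881 bp, against 876 bp over all peaks, and their median was 135 fragments over the kept cells, against 240 over all peaks. The weakest far peak had 13 fragments and the strongest had 47570. Their median distance to the nearest listed start was 131744 bp; the member just inside the limit lay at 100005 bp and the peak just outside it at 99996 bp. By distance, the 29499 peaks on a start interval had a median of 576 fragments, the 45269 peaks at 1 to 10 kb had 242, the 9171 peaks at 50 to 100 kb had 157, the 2970 far peaks at 100 to 200 kb had 137.5 and the 493 beyond 200 kb had 118. Peaks therefore grew weaker with distance on both sides of the limit.

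Far from a start did not mean outside genes. In RefSeq's annotation, 1750 far peaks (50.5%) lay inside the body of a protein-coding gene, 199 only inside another gene's body, and 1514 (43.7%) in none. They fell into 761 stretches between neighbouring starts, of which 249 held 1 far peak, and 23 stretches with at least 20 far peaks held 690 of them (19.9%). The share of a chromosome's peaks that were far ran from 1.10% on chromosome 10 to 3.64% on chromosome 12, apart from the Y chromosome, where none of 124 peaks was far. On the X chromosome 63 of 3527 peaks were far (1.79%).

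Just 4 far peaks lay more than 500 kb from a listed start. The farthest, chr1:114532485-114533396 between Dsel and Cntnap5a, lay 568.35 kb away and had 131 fragments; it was 2.96-fold higher in enterocyte-like cells. On the same stretch, chr1:114466873-114467925 had 64 fragments, with 34 of them in crypt progenitor-like cells (4.14-fold higher than the others) and 3 in enterocyte-like cells (a ratio of 0.16). The other two lay inside Ptprd, a receptor tyrosine phosphatase gene, at 560.45 and 565.32 kb; their enterocyte-like ratios were 0.07 and 0.35, and in no class did either reach the 2-fold limit, with highest ratios of 1.85 in tuft-like cells for the first and 1.72 in enteroendocrine-like cells for the second, both on few fragments.

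Far peaks held 1082190 of the 95549630 peak fragments of the kept cells, or 1.13%. The share was 1.24% in enterocyte-like cells (1.23 to 1.24), 1.11% in goblet-like (1.11 to 1.12), 1.07% in crypt progenitor-like (1.07 to 1.08), 1.09% in Paneth-like (1.08 to 1.11), 1.02% in tuft-like (1.00 to 1.04) and 1.07% in enteroendocrine-like cells (1.05 to 1.08). The interval of enterocyte-like cells lay above that of every other class. The share of fragments within 1 kb of a start ran the other way, at 46.9% in enterocyte-like cells, against 50.7% in goblet-like, 51.1% in crypt progenitor-like, 51.6% in Paneth-like, 54.2% in enteroendocrine-like and 55.1% in tuft-like cells, and the part of that split in the far share was not tested.

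A handful of far peaks weighed on those shares. Of the 295 peaks with more than 8000 fragments, 7 were far, and these held 115250 fragments, 10.6% of all fragments in far peaks. The strongest, chr1:56781758-56782666, had 47570 fragments in 8254 cells, 83.6% of the kept cells. It had 676 CPM in enterocyte-like cells, 592 in goblet-like, 662 in tuft-like, 519 in enteroendocrine-like, 337 in Paneth-like and 266 in crypt progenitor-like cells. The next were chr2:138467971-138468873 with 14356 fragments, chrX:87237937-87238860 inside Il1rapl1 with 13331, chr8:115206513-115207414 inside Wwox with 12002, chr4:7391327-7392226 with 10706, chr1:122356761-122357659 with 8957 and chr7:137916166-137917064 with 8328. All 7 had fragments in every class, with a highest class 2.54 to 3.22 times the lowest. Whether the mapping of reads played a part in these counts was not tested, since neither genome sequence nor reads were used.

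The 7 strong peaks kept nearly the same proportions to each other in every class: the strongest made up between 40.1% of their fragments in enterocyte-like and 43.4% in enteroendocrine-like cells. Their sum was 1685 CPM in enterocyte-like cells, 1426 in goblet-like, 1536 in tuft-like, 1196 in enteroendocrine-like, 833 in Paneth-like and 621 in crypt progenitor-like cells. The mtDNA-encoded share of UMIs stood at 77.2%, 53.5%, 55.3%, 49.8%, 41.5% and 53.8% in the same classes, and its part in these levels was not tested. Across the 18 clusters of kept cells, which share both libraries, the sum of the 7 peaks and the mtDNA-encoded share had a Pearson's r of 0.57 and a Spearman's rho of 0.47. Without the 7 peaks the far share was 1.07% in enterocyte-like, 1.01% in Paneth-like, 1.01% in crypt progenitor-like, 0.968% in goblet-like cells, 0.949% in enteroendocrine-like cells and 0.869% in tuft-like cells, so enterocyte-like cells stayed highest while goblet-like cells were below crypt progenitor-like and Paneth-like cells.

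**Figure D1:**
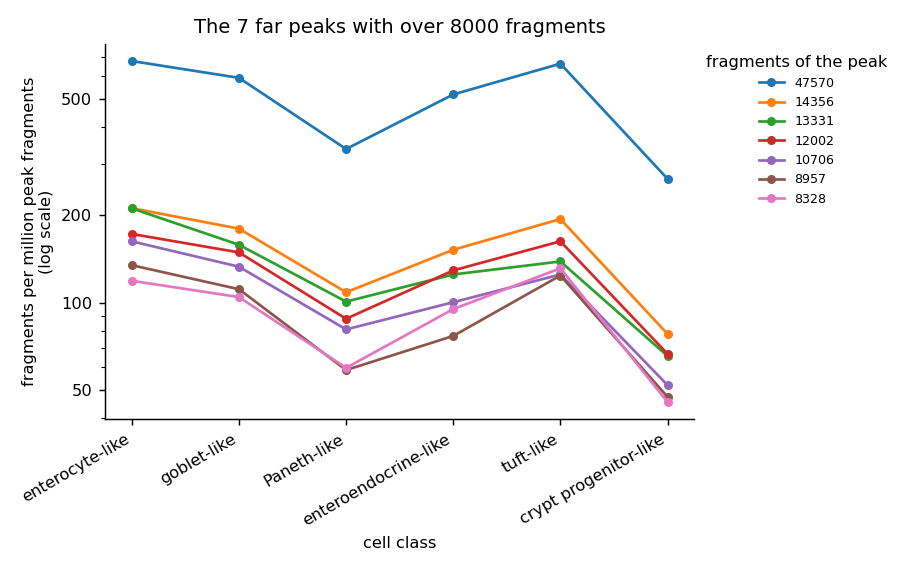
Fragment CPM (y axis, log scale) of the 7 far peaks with more than 8000 fragments in each of the 6 epithelial classes of the 1 mouse (x axis), 1 line for each peak, labelled with its fragments over the kept cells. The lines run nearly parallel and are lowest in crypt progenitor-like cells, where the strongest peak stood at 266, against 676 in enterocyte-like cells.

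A peak was called higher in a class at a level of at least 2 times that of all other named classes pooled, and lower at 0.5 times or less, where at least 5 fragments were expected in the class. Of 3438 far peaks assessed in enterocyte-like cells, 664 were higher (19.3%), against 15.8% of all peaks. In crypt progenitor-like cells 569 of 3449 were higher (16.5%), against 10.9% of all peaks. In goblet-like cells 316 of 3438 were higher (9.19%), against 6.46% of all peaks, and in Paneth-like cells 119 of 1531 (7.77%), against 4.52%. Far peaks were thus called more often than peaks at large in these 4 classes. In enteroendocrine-like cells 39 of 947 were higher (4.12%), against 4.65% of all peaks, and in tuft-like cells 7 of 493 (1.42%), against 2.59%. In these last classes the filter on expected fragments left mostly the stronger peaks, and without it the shares were 15.7% and 14.8% of far peaks, against 12.2% and 12.5% of all peaks, which turns the order round. In enteroendocrine-like cells the order also turned at 50 kb (5.02% of far peaks, against 4.65% of all) and with the other classes weighted equally (4.33%, against 3.96%). It turned too with at least 20 expected fragments (0.649%, against 0.58%), where just 154 far peaks were assessed. The order was kept at 200 kb (2.31%, against 4.65%), at clustering resolution 0.5 (3.76%, against 5.44%) and without the highest doublet scores (3.46%, against 4.52%). It was also kept without cells above 80% mtDNA-encoded UMIs, with values not halved and with scaling to fragments within 1 kb of starts. Adding an unnamed cluster of 40 cells kept it as well (4.16%, against 5.31%). No lean of far peaks was thus settled in that class.

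Calls of lower accessibility were also more frequent among far peaks in every class, though these shares were not matched for the strength of the peaks. They numbered 1109 in enterocyte-like cells (32.3%, against 25.3% of all peaks), 813 in crypt progenitor-like cells (23.6%, against 18.3%), 316 in goblet-like cells (9.19%, against 4.55%), 246 in enteroendocrine-like cells (26.0%, against 17.8%), 180 in Paneth-like cells (11.8%, against 8.72%) and 152 in tuft-like cells (30.8%, against 17.9%). All peaks include those near starts. In the same order, the shares were 25.6%, 20.5%, 4.95%, 22.2%, 10.3% and 24.6% of peaks 1 to 100 kb from a start. Within 1 kb they were 23.5%, 11.3%, 2.91%, 9.24%, 4.85% and 8.23%. Far peaks thus stood above peaks at 1 to 100 kb too, by less than above all peaks. The median log2 ratio of the assessed far peaks was -0.36 in enterocyte-like cells, against -0.28 over all assessed peaks, and -0.65 in tuft-like cells, against -0.18. In crypt progenitor-like cells it was -0.0040, against 0.03. A total of 1631 far peaks (47.1%) were higher in at least 1 class, against 36.8% of all peaks, and 75 were higher in more than 1. That total was not matched for strength either.

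**Figure D2:**
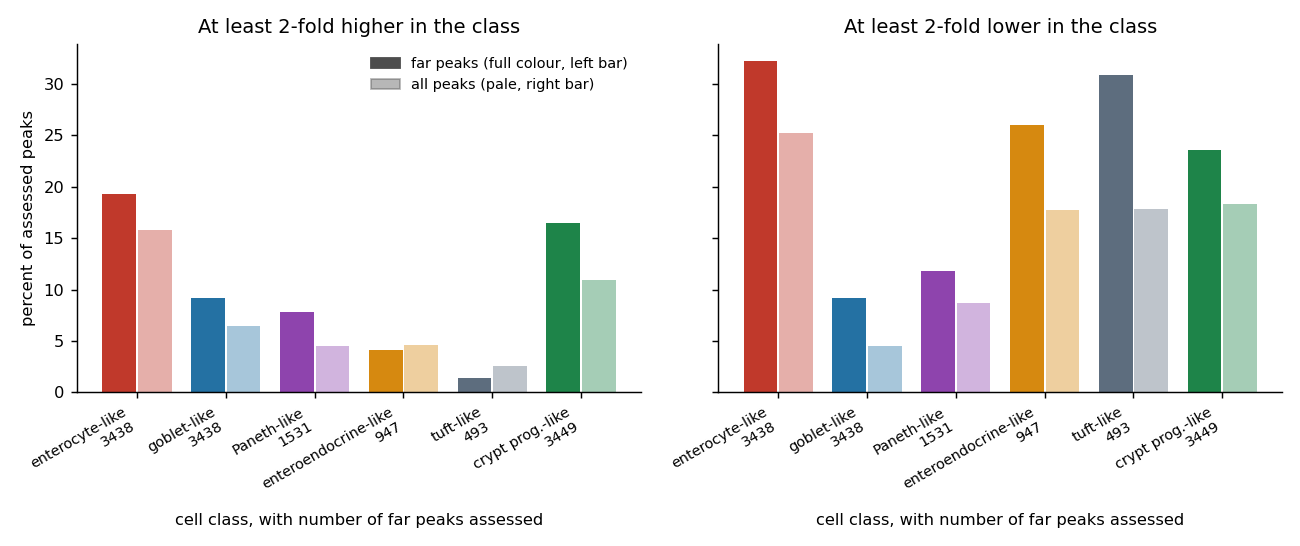
Percent of assessed peaks called at least 2-fold higher, and at most 0.5-fold, in each of the 6 epithelial classes, with far peaks drawn left of all peaks. In enterocyte-like cells 19.3% of far peaks were higher, against 15.8% of all peaks, and in crypt progenitor-like cells 16.5%, against 10.9%.

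Weak peaks reach a 2-fold ratio by counting error more easily than strong ones, so far peaks were set against the other peaks of like strength. This was done only for calls of higher accessibility in the largest classes. Peaks were split into 5 ranges of fragment count, and in enterocyte-like, goblet-like and crypt progenitor-like cells the far peaks had the higher share of calls in all 15 of these splits. In crypt progenitor-like cells, for example, the shares were 13.4% of far peaks against 9.55% of other peaks in the weakest range, 25.4% against 14.1% in the middle range and 5.26% against 3.01% in the strongest. In enterocyte-like cells the widest gap was in the strongest range, at 26.3% (25 of 95 far peaks) against 7.41%. In that range the goblet-like and crypt progenitor-like shares rest on 3 and 5 called far peaks. The other peaks in these splits include those near starts. With peaks weighted to the strength of far peaks, the share called higher in crypt progenitor-like cells was 11.7% within 1 kb of a start, 10.1% at 1 to 10 kb, 10.9% at 10 to 50 kb, 14.1% at 50 to 100 kb, 15.6% at 100 to 200 kb and 22.2% beyond 200 kb. In goblet-like cells the same series ran 6.43%, 6.85%, 7.67%, 8.54%, 8.90% and 11.6%. In enterocyte-like cells it was 12.5%, 16.4%, 17.1%, 18.2%, 19.6% and 16.7%, so that it did not go on rising beyond 200 kb.

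**Figure D3:**
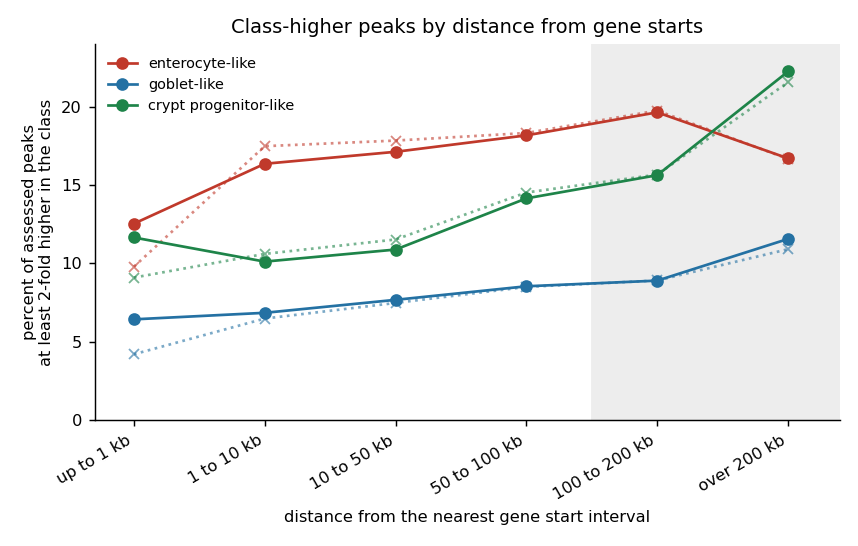
Percent of peaks called at least 2-fold higher in enterocyte-like, goblet-like and crypt progenitor-like cells (y axis) by distance from the nearest gene start interval (x axis, 6 ranges from within 1 kb to beyond 200 kb), with filled points and solid lines weighted to the fragment counts of far peaks and crosses with dotted lines unweighted; the shaded ranges are far peaks. In crypt progenitor-like cells the share is 11.7% nearest to starts and 22.2% beyond 200 kb.

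For each class, the 5 most specific far peaks were taken as those with the highest lower bound of the ratio's interval among the peaks that were at least 2-fold higher and highest in that class. Genes are named as the nearest listed or protein-coding neighbours, and a neighbour is not shown to be the gene that a peak acts on.

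The enterocyte-like peaks were led by one 146 kb from Fat1, which encodes an atypical cadherin. This peak, chr8:44788747-44789652, had 19.5 CPM in enterocyte-like cells, against 4.27 in goblet-like, 3.03 in Paneth-like, 1.76 in enteroendocrine-like, 1.24 in crypt progenitor-like and 3.12 in tuft-like cells. It was 7.40-fold higher in enterocyte-like cells (6.03 to 9.14). The strongest of the 5 was chr4:55767970-55768824, 236 kb from Klf4, which encodes a zinc-finger factor of differentiated gut epithelium. It had 46.1 CPM in enterocyte-like cells (43.1 to 49.3), against 11.2 in goblet-like, 11.1 in Paneth-like, 4.10 in enteroendocrine-like, 3.31 in crypt progenitor-like and 7.28 in tuft-like cells, and a ratio of 6.46 (5.70 to 7.35). Of its 1864 fragments 872 were in enterocyte-like cells, and 3 clusters without a name also stood high, at 54.9, 56.6 and 39.8 CPM.

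The other three enterocyte-like peaks were weaker. A peak at chr19:18899885-18900762, 100 kb from Rorb, a nuclear receptor gene, had 3.97 CPM in enterocyte-like cells, against at most 1.04 in any other class, and a ratio of 9.51 (5.74 to 16.4), or 14.4 without the cells of highest doublet score. A peak at chr10:54438405-54439289, 363 kb from Man1a, which encodes a mannosidase of the Golgi, had 3.49 in enterocyte-like cells, against at most 1.76 elsewhere, and a ratio of 9.84 (5.71 to 17.9), or 5.76 with the other classes weighted equally. It rested mostly on 1 of the 3 enterocyte-like clusters, with 47 fragments (6.22 CPM) there and 17 (2.04 CPM) and 2 (0.657 CPM) in the others, and stood at 2.78 CPM in an unnamed cluster. Inside Atp8a2, a gene for a phospholipid flippase, chr14:59789868-59790772 had 10.9 in enterocyte-like cells, against at most 2.21 elsewhere, and a ratio of 7.06 (5.39 to 9.33).

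Among these named peaks the goblet-like ones had the highest ratios, and 2 of the 5 lie between BC052040 and Meis2, which encodes a TALE homeobox factor. The nearer protein-coding start was that of BC052040, 199 kb from the first peak and 195 kb from the second. The second peak lies inside BC052040. The first, chr2:115780325-115781224 at 283 kb from Meis2, had 7.56 CPM in goblet-like cells, against 0.37 in enterocyte-like, 1.35 in Paneth-like, 1.17 in enteroendocrine-like, 0.132 in crypt progenitor-like and 1.04 in tuft-like cells, and a ratio of 21.1 (12.7 to 37.2). That ratio was 9.30 with the other classes weighted equally and 35.7 without the cells of highest doublet score. The second, chr2:115776745-115777619 at 287 kb, holds the Gm52524 start printed above. It had 13.3 in goblet-like cells, against 0.74 in enterocyte-like, 2.69 in Paneth-like, 1.17 in enteroendocrine-like, 1.01 in crypt progenitor-like and 2.08 in tuft-like cells, and a ratio of 12.6 (9.26 to 17.4), or 21.0 without the cells of highest doublet score. The RNA of Meis2 was too rare to set beside them, with 13 UMIs in goblet-like cells, against 22 in enterocyte-like cells, 17 in crypt progenitor-like, 2 in Paneth-like and none in enteroendocrine-like and tuft-like cells.

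The remaining goblet-like peaks lay by a receptor gene and potassium channel genes. A peak at chr3:61144099-61145219, 141 kb from P2ry1, a receptor for ADP, had 6.99 in goblet-like cells, against at most 1.35 elsewhere, and a ratio of 18.4 (11.2 to 32.0). Inside Kcnh8, a voltage-gated potassium channel gene, chr17:52816172-52817118 had 5.14 in goblet-like cells, against at most 1.04 elsewhere, and a ratio of 16.3 (9.40 to 30.1), or 26.0 without the cells of highest doublet score. A peak 326 kb from Kcnj2, an inward rectifier potassium channel gene, chr11:111392218-111393095, had 7.25 in goblet-like cells, against at most 1.35 elsewhere, and a ratio of 14.3 (9.25 to 23.1). The RNA of Kcnj2 was 3.02-fold and that of P2ry1 1.66-fold higher in goblet-like cells than in the others, while that of Kcnh8 had a ratio of 1.20 in goblet-like and 11.8 in enteroendocrine-like cells.

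These 5 peaks were uneven within the goblet-like class, which holds a cluster of 824 cells with Clca1 among its leading genes and a cluster of 651 cells led by Pdia5 and Kcnma1. The first Meis2 peak had 14.8 CPM in the Clca1 cluster and 0.309 in the other, the second 20.1 and 6.38, the P2ry1 peak 11.5 and 2.47, the Kcnh8 peak 9.46 and 0.823, and the Kcnj2 peak 11.7 and 2.78. All 5 were higher in the Clca1 cluster. Over the 316 far peaks called higher in goblet-like cells, 107 (33.9%) were at least 2-fold higher in the Clca1 cluster than in the other, against 30.6% of all called peaks, and 39 (12.3%) were at least 2-fold higher the other way, against 12.1%.

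**Figure D4:**
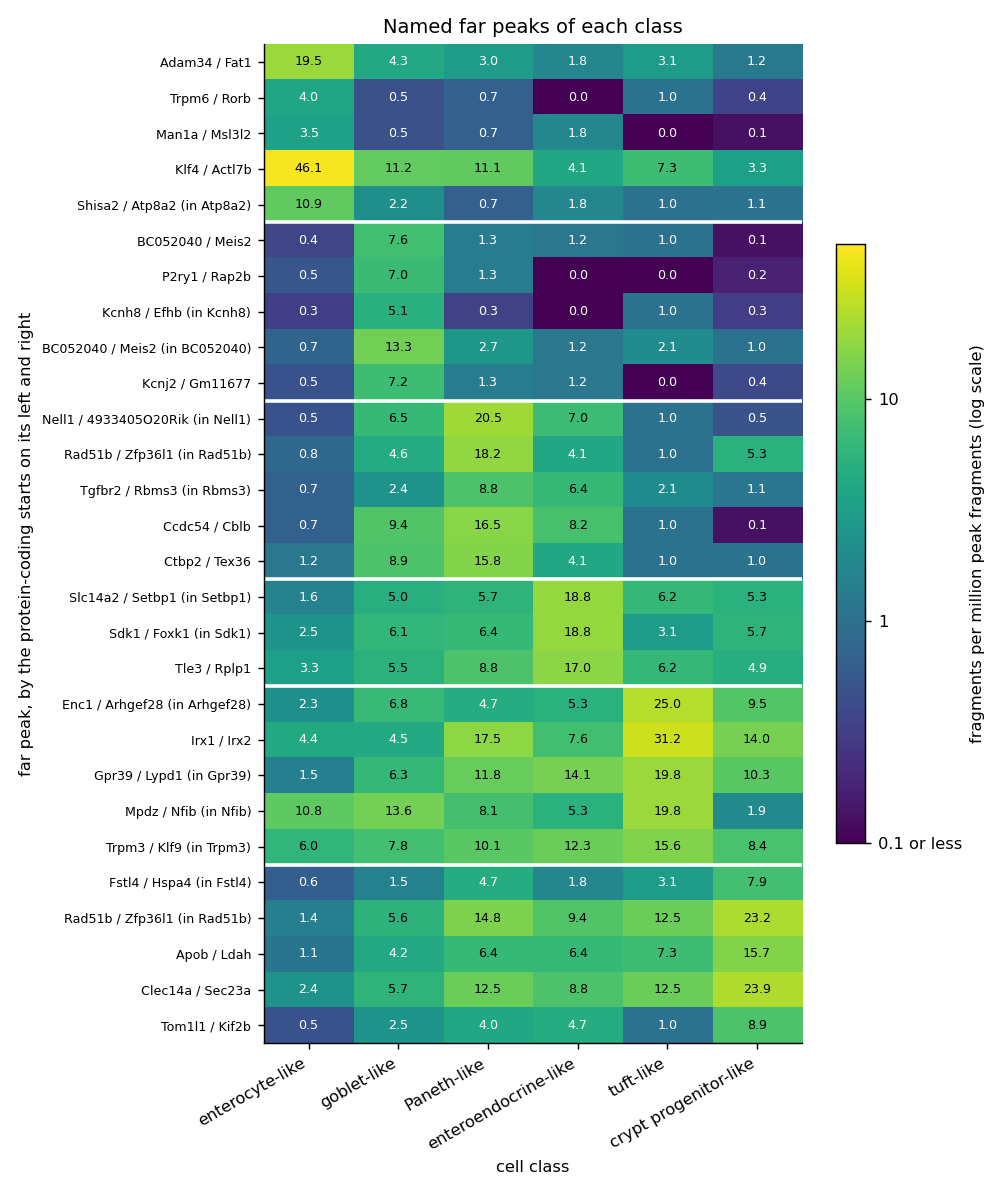
Fragment CPM (colour, log scale, and printed in each cell) of the named far peaks (rows, 5 for each class but 3 for enteroendocrine-like cells, labelled by the protein-coding starts on either side and grouped by class with white lines) in the 6 epithelial classes (columns). The goblet-like peaks reach at most 2.69 in any other class, and the tuft-like and enteroendocrine-like peaks keep levels above 1 in nearly every class, as the Setbp1 peak does with 18.8 in enteroendocrine-like and 1.59 in enterocyte-like cells.

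Paneth-like peaks were shared with other secretory classes or with crypt progenitor-like cells. Inside Nell1, which encodes a secreted glycoprotein, chr7:50105427-50106342 had 20.5 CPM in Paneth-like cells, against 6.48 in goblet-like, 7.03 in enteroendocrine-like, 1.04 in tuft-like, 0.476 in enterocyte-like and 0.485 in crypt progenitor-like cells, and a ratio of 8.26 (6.04 to 11.2). A peak 413 kb from Cblb, a ubiquitin ligase gene, chr16:51617371-51618283, had 16.5 in Paneth-like cells, against 9.36 in goblet-like cells, 8.20 in enteroendocrine-like and 0.132 in crypt progenitor-like cells, and a ratio of 4.90 (3.52 to 6.72). A peak 131 kb from Tex36, chr7:133470117-133471001, had 15.8 in Paneth-like cells, against 1.01 in crypt progenitor-like and 8.90 in goblet-like cells, and a ratio of 4.48 (3.20 to 6.15). Inside Rbms3, an RNA-binding protein gene, chr9:116762213-116763117 had 8.76 in Paneth-like cells, against 6.45 in enteroendocrine-like and 1.15 in crypt progenitor-like cells, and a ratio of 5.65 (3.52 to 8.78), which was 3.43 with the other classes weighted equally and 8.97 without the cells of highest doublet score. The last, chr12:79661044-79661963 inside Rad51b, a gene of homologous recombination, had 18.2 in Paneth-like cells, against 5.34 in crypt progenitor-like and 4.63 in goblet-like cells, and a ratio of 4.97 (3.62 to 6.70).

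Crypt progenitor-like cells and Paneth-like cells thus each had a specific peak within Rad51b. The crypt progenitor-like one, chr12:79674630-79675421, had 23.2 CPM in crypt progenitor-like cells, against 14.8 in Paneth-like, 12.5 in tuft-like, 9.38 in enteroendocrine-like, 5.60 in goblet-like and 1.43 in enterocyte-like cells, and a ratio of 4.91 (4.17 to 5.79). Within the class it stood at 35.0 in the stem-like cluster, which Lgr5 leads, and at 16.3 in the cycling-like cluster. The RNA of Rad51b was 6.41-fold higher in crypt progenitor-like cells than in the others, at 752 UMIs per 1000000 nuclear-encoded UMIs (UMI CPM), against 274 in Paneth-like cells, where its ratio was 0.786.

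The other crypt progenitor-like peaks all had their lowest level in enterocyte-like cells. A peak between Apob and Ldah, chr12:8089722-8090652, had 15.7 in crypt progenitor-like cells, against 1.11 in enterocyte-like and 4.22 in goblet-like cells, and a ratio of 4.96 (4.07 to 6.07). It lay 112 kb from Apob, the apolipoprotein B gene, whose RNA had a ratio of 0.141 in crypt progenitor-like and 8.54 in enterocyte-like cells, and 117 kb from Ldah, a lipid droplet hydrolase gene with a crypt progenitor-like RNA ratio of 1.55. A peak 355 kb from Clec14a, chr12:58624764-58625663, had 23.9 in crypt progenitor-like cells, against 2.43 in enterocyte-like cells, and a ratio of 4.76 (4.06 to 5.59). A peak 332 kb from Kif2b, a kinesin gene, chr11:91244615-91245526, had 8.91 in crypt progenitor-like cells, against 0.476 in enterocyte-like cells, and a ratio of 5.05 (3.87 to 6.64). Inside Fstl4, a follistatin-like gene, chr11:52877821-52878680 had 7.90 in crypt progenitor-like cells, against 0.634 in enterocyte-like and 4.72 in Paneth-like cells, and a ratio of 5.63 (4.19 to 7.64). With the other classes weighted equally, which gives Paneth-like and tuft-like cells more weight, all 5 crypt progenitor-like ratios lay below their intervals, at 2.65 for the Rad51b, 3.08 for the Apob and Ldah, 2.86 for the Clec14a and 3.35 for the Fstl4 peak, with the Kif2b peak moving least.

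Of the 569 far peaks higher in crypt progenitor-like cells, 122 (21.4%) were at least 2-fold higher in the stem-like than in the cycling-like cluster, against 13.5% of all peaks called higher in the class, and 17 (2.99%) were at least 2-fold higher in the cycling-like cluster, against 4.30%. The Apob and Ldah peak was level between them, at 15.4 in the stem-like and 15.9 in the cycling-like cluster.

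Under the rule with at least 5 expected fragments, the enteroendocrine-like peaks were about 4-fold higher at most. The first, inside Setbp1, chr18:79000156-79001068, had 18.8 CPM in enteroendocrine-like cells, against 6.24 in tuft-like, 5.73 in Paneth-like, 5.34 in crypt progenitor-like, 5.04 in goblet-like and 1.59 in enterocyte-like cells, and a ratio of 4.49 (3.01 to 6.49). A further 2 were chr5:142181583-142182486 inside Sdk1, an adhesion molecule gene, at 3.84 (2.58 to 5.54) and chr9:61645802-61646664 between Tle3 and Rplp1 at 3.56 (2.35 to 5.22). RNA of the host genes was higher in enteroendocrine-like cells than in the other classes by 19.4-fold for Setbp1 and 15.4-fold for Sdk1.

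The tuft-like peaks were chr13:98092059-98092970 inside Arhgef28, a guanine nucleotide exchange factor gene, with 25.0 CPM in tuft-like cells, against at most 9.53 elsewhere, and a ratio of 3.95 (2.50 to 5.95), and chr13:72209896-72210776, 246 kb from the Iroquois homeobox gene Irx1, with 31.2 in tuft-like cells, against 17.5 in Paneth-like and 14.0 in crypt progenitor-like cells, and a ratio of 3.71 (2.48 to 5.36). The rest had intervals that reached below 2-fold. Inside Gpr39, chr1:125808191-125809103 had 19.8 in tuft-like and 14.1 in enteroendocrine-like cells, and a ratio of 2.94 (1.75 to 4.65). Inside Nfib, chr4:82315451-82316471 had 19.8 in tuft-like and 13.6 in goblet-like cells, and a ratio of 2.39 (1.43 to 3.77). Inside Trpm3, chr19:22915534-22916378 had 15.6 in tuft-like and 12.3 in enteroendocrine-like cells, and a ratio of 2.02 (1.12 to 3.36). The Trpm3 peak also had 21.2 in lymphocyte-like cells, on 4 fragments. The RNA of Arhgef28 was 3.02-fold higher in tuft-like cells, that of Gpr39 had a ratio of 0.555 there, and Irx1 had no UMI in the kept cells.

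For classes of few cells the filter keeps out peaks that are closed everywhere else, so the ranking was also made without it, on peaks with at least 10 fragments in the class; this was decided after the values had been seen. The named peaks of enterocyte-like, goblet-like and crypt progenitor-like cells were the same 5 under both rules, 1 of the 5 was shared in Paneth-like cells and none in enteroendocrine-like and tuft-like cells. Without the filter the first Paneth-like peak, chr14:22326158-22327056 inside Lrmda, had 12.5 CPM in Paneth-like cells, against 0.411 in goblet-like, 0.159 in enterocyte-like and 0.0882 in crypt progenitor-like cells and none in the other two classes, and a ratio of 56.9 (30.0 to 114).

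The Lrmda peak and the enteroendocrine-like and tuft-like peaks found this way are by selection nearly closed elsewhere. Fewer than 5 fragments were expected in the class and at least 10 were seen, so the ratios of these peaks describe them and are no test. In enteroendocrine-like cells chr3:147878498-147879370 had 15.8 CPM, against at most 0.353 in any other class, and a ratio of 57.3 (30.4 to 110). A peak 927 kb from Ncam2, a neural adhesion molecule gene, chr16:80272358-80273259, had 22.3 in enteroendocrine-like and 3.12 in tuft-like cells and a ratio of 48.4 (29.2 to 80.8). It had 47.8 in an unnamed cluster of 40 cells with Tph1 and Chga among its leading genes, and the RNA of Ncam2 was 251-fold higher in enteroendocrine-like cells than in the other classes. A peak 103 kb from Tox3, chr8:90244507-90245422, had a ratio of 39.5 (22.9 to 68.2) and the RNA of Tox3 one of 3.81. In tuft-like cells chr4:56499616-56500568 had 23.9, against at most 0.771 elsewhere, and a ratio of 43.8 (24.8 to 76.0). Inside Vti1a, 185 kb from Tcf7l2, which encodes a transcription factor of the Wnt pathway, chr19:55556109-55556909 had 25.0 and a ratio of 32.9 (19.3 to 54.6). A peak 153 kb from Vav3, an exchange factor gene, chr3:109726668-109727503, had a ratio of 20.4, and the RNA of Vav3 was 6.02-fold higher in tuft-like cells.

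Far peaks of 1 stretch were often, but not always, called in the same class. The stretches described here are among those with at least 20 far peaks and were chosen after their values were seen. Over all assessed far peaks, 19.3% were higher and 32.3% lower in enterocyte-like cells, and 16.5% higher and 23.6% lower in crypt progenitor-like cells. The shares higher in goblet-like and Paneth-like cells were 9.19% and 7.77%. The 26 far peaks of the stretch beside Klf4 included 16 higher in enterocyte-like cells and 1 lower there, while none was higher and 16 were lower in crypt progenitor-like cells. Their median ratio was 2.54 in enterocyte-like and 0.34 in crypt progenitor-like cells, and single peaks ran from 0.15 to 6.46 in enterocyte-like cells. The 21 far peaks of the Fat1 stretch included 14 higher in enterocyte-like cells and none lower, and 12 lower in crypt progenitor-like cells. Beside Slc13a1, a sulfate transporter gene whose RNA was 9.93-fold higher in enterocyte-like cells, 15 of 27 far peaks were higher in enterocyte-like cells and none lower. The stretch beside Ext1 held 47 far peaks, with 23 higher and 5 lower in enterocyte-like cells, and 3 higher and 17 lower in crypt progenitor-like cells.

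Other stretches leaned away from enterocyte-like cells. The fullest, 69 far peaks over 421 kb within Rad51b, had 28 lower and 6 higher in enterocyte-like cells, and 16 higher and 6 lower in crypt progenitor-like cells. In Paneth-like cells 4 of its 42 assessed peaks were higher, near the share over all far peaks. Beside Cdh26, a cadherin gene, 24 of 29 far peaks were lower in enterocyte-like cells and none higher, and 8 were higher in crypt progenitor-like cells. The Meis2 stretch held 22 far peaks, of which 12 were lower in enterocyte-like cells and 6 higher in goblet-like cells; its median goblet-like ratio was 1.11 with a maximum of 21.1. Of the 6, 5 lay between 119 and 142 kb from the start of Mir1951, so the goblet-like peaks stood together at 1 end of the stretch.

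**Figure D5:**
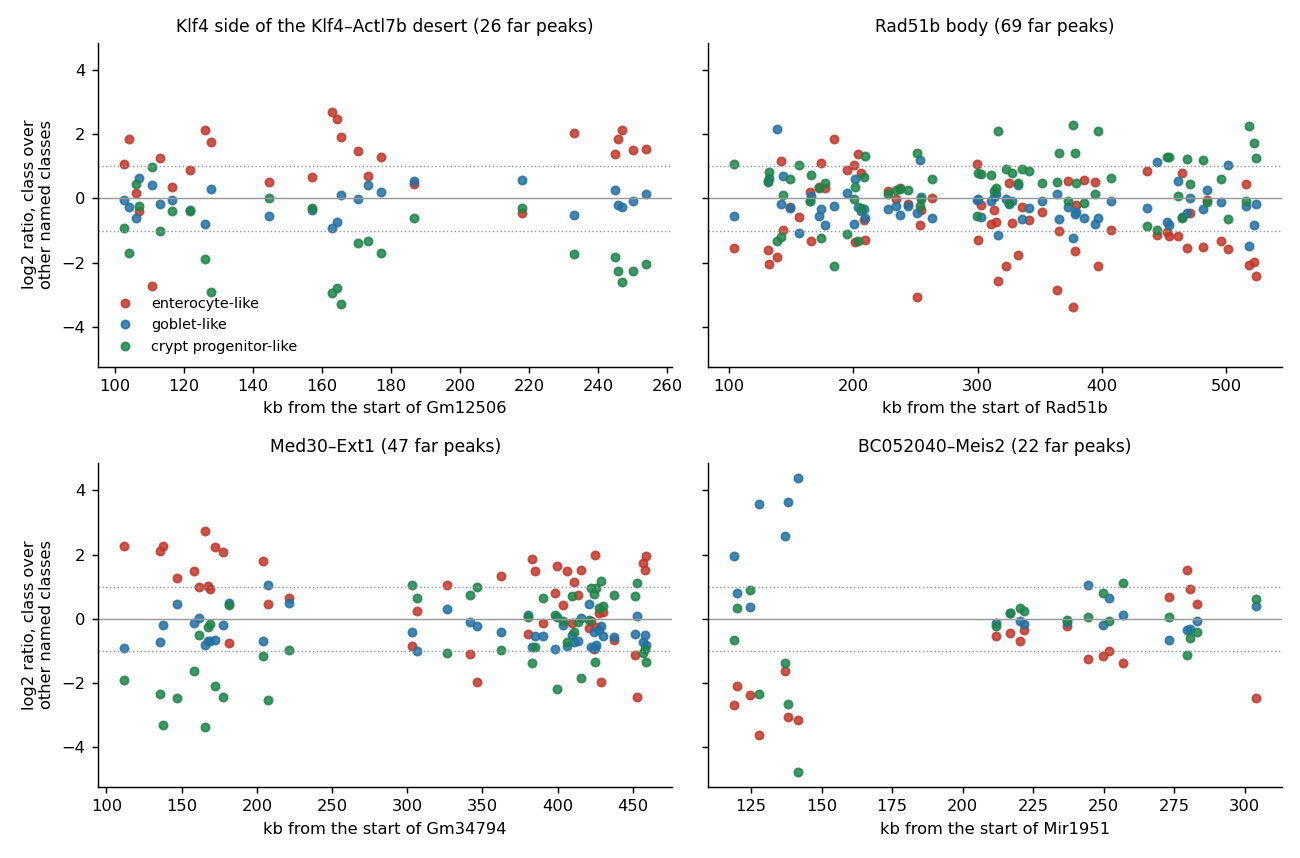
Log2 ratio of the class over the other named classes (y axis) of each assessed far peak, against its distance in kb from the start on the left of the stretch (x axis), in enterocyte-like, goblet-like and crypt progenitor-like cells; solid and dotted lines mark no difference and the 2-fold limits, and the stretches beside Klf4, Rad51b, Ext1 and Meis2 were chosen after their values were seen. Most peaks of the Klf4 stretch lie above 0 in enterocyte-like cells (median ratio 2.54) and below 0 in crypt progenitor-like cells (median ratio 0.34), and the goblet-like peaks of the Meis2 stretch stand at its left end.

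Neighbouring peaks often shared their class, whether far or not. Where both peaks of a pair were called, the pair had the same class in 79.6% of 196 far pairs up to 2 kb apart, 72.8% of 239 at 2 to 10 kb and 60.5% of 147 at 10 to 50 kb, against 83.9%, 71.0% and 59.1% of pairs that were not far. The class shares of the far pairs alone would give 40.1%, 38.4% and 36.3%.

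A list of 103 intestinal transcription factor and signalling genes was then searched for neighbours of far peaks. Of the 103, 36 flanked a far peak, and 531 far peaks (15.3%) had a gene of the list as their nearest protein-coding neighbour on either side. The same shares were not taken over all protein-coding genes, so these counts do not show that the list flanks far peaks more often than other genes. The counts that follow stand beside shares over all assessed far peaks of 19.3% higher in enterocyte-like, 9.19% in goblet-like, 7.77% in Paneth-like and 16.5% in crypt progenitor-like cells. Maf, which encodes a bZIP factor of villus enterocytes, had 50 far peaks, with 19 higher in enterocyte-like cells and, close to the share over all far peaks, 9 in crypt progenitor-like cells; its RNA was 9.01-fold higher in enterocyte-like cells. Gata6, a zinc-finger factor gene of the gut epithelium, had 43, with 15 higher in enterocyte-like and 1 higher in crypt progenitor-like cells, and its RNA had a ratio of 0.966 in enterocyte-like cells. Klf4 had 31, with 18 higher in enterocyte-like and none in crypt progenitor-like cells; its RNA was at 320 UMI CPM in enterocyte-like cells, with a ratio of 1.58, but was highest in goblet-like cells at 435, and lowest in crypt progenitor-like cells at 38.6. The summed level of the Klf4 peaks had a ratio of 2.46 in enterocyte-like and 0.88 in goblet-like cells, so peaks and RNA had different highest classes.

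The Sox genes of the list differed among themselves. Sox9, which encodes a factor of crypt and Paneth cells, had 35 far peaks, none of them higher in enterocyte-like cells and 10 higher in crypt progenitor-like cells. In Paneth-like cells 5 of the 24 assessed were higher. The RNA of Sox9 had ratios of 4.74 in tuft-like, 2.46 in Paneth-like, 1.41 in crypt progenitor-like and 0.299 in enterocyte-like cells. Sox4 had 27, none higher in enterocyte-like, 7 higher in goblet-like and 2 higher in crypt progenitor-like cells. All 27 lay inside the body of Cdkal1, the nearest of them 397 kb from the Sox4 start. The RNA of Sox4 had ratios of 0.472 for goblet-like and 0.297 for enterocyte-like cells. Its highest ratio was that of enteroendocrine-like cells (4.3), followed by that of tuft-like cells (3.7). Sox6 had 44, with 12 higher in crypt progenitor-like, 7 in enterocyte-like and 5 of 22 assessed in Paneth-like cells. The RNA of Sox6 was 1.98-fold higher in enterocyte-like cells.

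Several neighbours that encode secreted signals had little or no RNA in these cells. The 5 far peaks beside Bmp4 were all higher in enterocyte-like cells, with a summed ratio of 4.36, and Bmp4 had no UMI in any of the 6 classes. Beside Shh, 9 of 30 far peaks were higher in goblet-like cells, while 5 in enterocyte-like and 5 in crypt progenitor-like cells were near the shares over all far peaks. Shh RNA was at most 0.948 UMI CPM in any class. Wnt5a, a Wnt ligand gene with at most 5.69 UMI CPM, had 11 far peaks, of which 6 were higher in crypt progenitor-like cells and none in enterocyte-like cells. Bmp2 did have RNA, at 53.1 UMI CPM in tuft-like, 28.5 in goblet-like and 18.8 in enterocyte-like cells, and 7 of its 20 far peaks were higher in enterocyte-like and 4 in goblet-like cells.

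Beside Runx1 and Isl1 the class of highest RNA was one in which few far peaks could be assessed. The RNA of Runx1, a factor gene best known from blood, was 92.4-fold higher in tuft-like cells. None of its 8 far peaks had enough expected fragments to be assessed there, and 5 of the 8 were higher in enterocyte-like cells, where its RNA had a ratio of 0.16. The summed level of the 8 peaks had a ratio of 0.978 in tuft-like and 2.04 in enterocyte-like cells. The RNA of Isl1, a LIM homeobox factor gene of endocrine cells, was 784-fold higher in enteroendocrine-like cells, and 2 of its 4 far peaks were higher in enterocyte-like cells. The summed level of these 4 peaks was highest in enteroendocrine-like cells, with a ratio of 1.66, against 1.29 in enterocyte-like cells, and 1 of the 4 could be assessed singly in enteroendocrine-like cells. Nfia, a nuclear factor I gene, had 15 far peaks with 4 higher in crypt progenitor-like and none in enterocyte-like cells, and its RNA was 2.84-fold higher in crypt progenitor-like cells. Genes of the list could take part in the clustering where another feature lay nearer to the peak.

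The nearest listed features on both sides of a far peak, which never took part in the clustering, were set beside the call of the peak. Of far peaks higher in enterocyte-like cells with an RNA assessed on at least 1 side, 82 of 328 (25.0%) had an RNA at least 2-fold higher there, against 10.5% of far peaks that were not called; of all genes assessed singly 11.5% were higher. The 328 peaks share 128 such genes, of which 24 were higher. In crypt progenitor-like cells the RNA was higher for 89 of 259 (34.4%), against 23.9% beside peaks not called and 19.8% of all genes. In goblet-like cells it was 12 of 153 (7.84%), against 7.20% beside peaks not called and 5.65% of all genes. In Paneth-like cells it was 6 of 58 (10.3%), against 4.05% and 2.89%, and in enteroendocrine-like cells 6 of 16 (37.5%), against 14.8% and 5.77%. Counted once each, the genes beside called peaks were 140 in crypt progenitor-like cells (40 higher) and 89 in goblet-like cells (6 higher). They were 40 in Paneth-like cells (4 higher) and 15 in enteroendocrine-like cells (5 higher). With the nearest protein-coding neighbours in place of the nearest features, the shares were 24.9% in enterocyte-like cells, against 14.2% beside peaks not called, 31.5% in crypt progenitor-like cells, against 26.0%, 14.5% in goblet-like cells, against 8.39%, 20.8% in Paneth-like cells, against 10.5%, and 29.4% in enteroendocrine-like cells, against 13.3%. These are shares of peaks, and peaks can share a gene. Counted once each, the genes beside called peaks were 316 in enterocyte-like (43 higher), 335 in crypt progenitor-like (77) and 213 in goblet-like cells (14). They were 99 in Paneth-like (13) and 39 in enteroendocrine-like cells (8). A protein-coding neighbour could take part in the clustering where another feature lay nearer. Most far peaks called in each of these classes therefore had no nearest feature whose RNA was also called in it.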

How the data were processed

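The deposited matrix holds raw counts per barcode, as written by Cell Ranger ARC 2.0.2 on mm10 per the file headers and the submitters' processing notes: UMIs for 55401 genes, of which 37 mtDNA genes carry no position, and cut-site counts for 146191 peaks in 12363 barcodes. As 87.6% of the peak values were even, deposited counts were halved and rounded up to fragments. Distances were taken between a peak's edge and each gene's start interval in the deposited feature list. Cells were clustered with scanpy 1.11.5 and leidenalg 0.10.2 (1500 variable genes, 30 components, 15 neighbours, resolution 1, seed 1), without the 1482 genes that flank far peaks, which gave 18 clusters. A cluster took a name where a marker list had a median log2 ratio of at least 0.4 over at least 3 detected markers and led the next list by 0.4. It stayed unnamed where its leading genes held more markers of another list than of its own. Clusters with few nuclear-encoded UMIs also needed markers of their own list among their leading genes. Some markers used for naming also flank far peaks, among them Apoa1, Apob, Olfm4 and Scg2. The RNA doublet caller marked 0 of 9872 cells, so it had not worked and doublets remain. In a cluster of 40 cells the neural list scored highest, at 4.08 against 2.66 for the endocrine list. This cluster stayed unnamed, since its leading genes included Tph1 and Chga but no neural marker.

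Intervals are exact (Clopper-Pearson, Poisson or conditional, scipy 1.17.1), cover counting error only, and were computed with numpy 2.4.6 and pandas 2.3.3; no test between classes is possible with 1 animal. RNA levels are UMIs per 1000000 nuclear-encoded UMIs. Named peaks are, in each class, the 5 with the highest lower bound of the ratio's interval among assessed peaks at least 2-fold higher and highest there. Of these, 2 enteroendocrine-like peaks are not reported here. The ratio script was tested on simulated data. The members, the lists and the rules were chosen with earlier results of these data known. Alternatives changed the distance, the fragment rule, cells, clustering resolution, scaling, the pooling of classes and the filter. RefSeq windows on chromosome 18 were not used. No genome sequence was used, so motifs were searched only in RefSeq promoter windows.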

Additional observations from a re-analysis of the deposited data

How the results depend on the processing

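No paired analysis was possible because 1 animal gave both libraries and no result comes from a test. The number of far peaks was 12634 at 50 kb, 493 at 200 kb and 21066 when only genes with at least 10 UMIs counted. At 50 kb the share of fragments was 4.68% in enterocyte-like, 4.33% in goblet-like, 4.33% in Paneth-like, 4.22% in enteroendocrine-like, 4.32% in crypt progenitor-like and 4.02% in tuft-like cells, and at 200 kb 0.152%, 0.153%, 0.156%, 0.143%, 0.157% and 0.135% in the same order, so enterocyte-like cells were not highest at 200 kb. Without the 7 strong peaks, an alternative added after seeing the data, the shares were 1.07%, 0.968%, 1.01%, 0.949%, 1.01% and 0.869%. With deposited values not halved they were 1.12% in goblet-like, 1.24% in enterocyte-like and 1.08% in crypt progenitor-like cells. Without the 835 cells of highest doublet score they were 1.09% in goblet-like, 1.08% in Paneth-like and 0.974% in tuft-like cells, without the 2904 cells above 80% mtDNA-encoded UMIs 1.23% in enterocyte-like cells, and at resolution 0.5 1.08% in crypt progenitor-like and 0.987% in tuft-like cells.

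The percent of far peaks called higher held within 1.5 times in enterocyte-like, goblet-like and crypt progenitor-like cells under every alternative run. In Paneth-like cells it was 4.05% with at least 20 expected fragments, against 1.65% of all peaks. In enteroendocrine-like cells it was 7.46% with values not halved (7.78% of all peaks), 2.31% at 200 kb (4.65%), 0.649% with at least 20 expected fragments (0.58%) and 15.7% with no filter (12.2%). In tuft-like cells it was 4.12% with values not halved (5.08% of all peaks), 2.26% at 50 kb (2.59%), 0 at 200 kb (2.59%), 0 with at least 20 expected fragments (0.131%) and 14.8% with no filter (12.5%). The filter changes which peaks are assessed; for the other changes the cause was not tested. Of 180 alternative ratios of the 30 named peaks, 163 lay inside the interval of the reported ratio, 17 outside it, none reversed, and 4 were below 2-fold, the lowest at 1.75. The ratios that moved by over 1.5 times did so with classes weighted equally or without the highest doublet scores, and stand beside their peaks. Depth limits the rare classes: 493 far peaks could be assessed in tuft-like cells, against 3438 in enterocyte-like cells.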

Other observations

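Where a far peak was called higher in a class and highest there, the class with the second highest level was not the same as for peaks at large in every case. Of 81 Paneth-highest far peaks, 39.5% had crypt progenitor-like cells second, against 22.7% of all Paneth-highest peaks, and 34.6% had goblet-like cells second, against 31.6%. Of 183 goblet-highest far peaks, 46.4% had Paneth-like cells second, against 40.5% of all, and of 364 crypt progenitor-highest far peaks 40.9% had Paneth-like cells second, against 36.9% of all. Of 581 enterocyte-highest far peaks, 34.8% had goblet-like cells second, against 36.5% of all, and of 35 enteroendocrine-highest far peaks 40.0% had Paneth-like cells second, against 28.9%. Second place goes by CPM, and 1 fragment in tuft-like cells already stands at 1.04 CPM. A rare class can thus come second on few fragments, and far and all peaks were not matched for strength here. These are descriptions of 1 animal with no test.

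Across the 18 clusters, which share both libraries, the far share without the 7 strong peaks and the share of fragments within 1 kb of a start had a Pearson's r of -0.87 and a Spearman's rho of -0.84. Both are shares of the same fragments.

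Within the enterocyte-like class, 152 of 664 far peaks called higher (22.9%) were at least 2-fold higher in cluster 5 than in cluster 0, against 18.0% of all called peaks, and 79 (11.9%) were at least 2-fold higher the other way, against 9.09%.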
